A study of Mus musculus with 6 samples.

Results

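The cell cycle and DNA replication genes described here are 37 mouse genes chosen by name: 7 regulators of the G1/S transition, 10 genes of DNA replication and nucleotide supply, and 20 genes of G2 and mitosis. All 37 had 1 row among the 58116 features of the count table, and all 37 passed the filter on low counts, which left 17006 genes tested. Poly(A) RNA was sequenced from wild type primordia of the salivary gland at embryonic day 13.5, small branching epithelia in mesenchyme, given 0 ng/ml (control, 3 libraries) or 300 ng/ml (3 libraries) of BMP-2, a secreted growth factor of the TGF-beta superfamily. The labels do not give the time of exposure, any pooling of primordia or the litter behind a library, so p-values measure no more than the spread from library to library, which could be technical. One BMP-2 column of the table carries a name that fits no numbered sample. Its group was read from its first letter alone, and it is called the unnumbered BMP-2 library. Values by library are given below in 1 order: control replicates 1, 2 and 3, then BMP-2 replicate 1, BMP-2 replicate 2 and the unnumbered library.

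A dividing cell passes through G1, S phase, G2 and mitosis. D-type and E-type cyclins drive the step from G1 into S phase by releasing E2F transcription factors from retinoblastoma proteins, and E2F then switches on genes of DNA replication such as the MCM helicase subunits. Later, B-Myb and FOXM1 switch on the genes of mitosis, among them B-type cyclins, mitotic kinases and spindle motors, many of which are bound at a pair of short promoter elements, the cell cycle homology region and the CCAAT box of NF-Y. In the branching salivary gland, cell division adds to the end buds as they enlarge and split.

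Matches to these elements were counted in the members' promoters. RefSeq promoter windows (GRCm38.p6, 250 bases before to 50 after a gene's start) were found by symbol for 28 of the 37 members, as 30 windows; Ccnd1, Ccnd2, Ccne2, Myc, Mcm4, Ccna2, Foxm1, Aurkb and Tpx2 had no entry. The 4 sequences below are shown because they hold the elements of the replication genes (Mcm6 and Mcm5) and of the mitotic genes (Ccnb2 and Mki67), and because Mki67 and Mcm6 had the lowest unadjusted p of their phase. Each is printed 5′ to 3′ in the direction of its gene. Capitals mark exact matches, on either strand, to an E2F site (TTTCCCGC, TTTCGCGC, TTTGCCGC or TTTGGCGC), the cell cycle homology region (TTTGAA or TTCGAA) or the CCAAT box (CCAAT).
Mcm6 (chr1:128359656-128359955, minus strand): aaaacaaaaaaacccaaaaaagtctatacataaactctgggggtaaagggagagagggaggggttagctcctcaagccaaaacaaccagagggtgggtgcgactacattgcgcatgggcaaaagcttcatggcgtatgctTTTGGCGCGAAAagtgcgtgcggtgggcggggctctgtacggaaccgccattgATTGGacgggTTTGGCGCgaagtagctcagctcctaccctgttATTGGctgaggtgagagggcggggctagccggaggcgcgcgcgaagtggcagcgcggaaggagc
Mcm5 (chr8:75109259-75109558, plus strand): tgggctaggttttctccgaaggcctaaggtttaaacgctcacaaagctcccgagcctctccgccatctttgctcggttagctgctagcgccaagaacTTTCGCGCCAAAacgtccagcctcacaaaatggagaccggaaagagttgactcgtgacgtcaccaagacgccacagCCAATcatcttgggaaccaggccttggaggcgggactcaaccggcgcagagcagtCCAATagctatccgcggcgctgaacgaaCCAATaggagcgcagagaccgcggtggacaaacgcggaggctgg
Ccnb2 (chr9:70421505-70421804, minus strand): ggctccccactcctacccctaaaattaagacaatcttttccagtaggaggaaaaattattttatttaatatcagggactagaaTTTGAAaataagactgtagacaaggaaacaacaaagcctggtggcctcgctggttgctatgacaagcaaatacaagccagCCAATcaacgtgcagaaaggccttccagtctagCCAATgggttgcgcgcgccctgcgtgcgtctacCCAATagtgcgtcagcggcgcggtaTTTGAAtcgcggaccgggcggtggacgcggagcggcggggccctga
Mki67 (chr7:135716330-135716629, minus strand): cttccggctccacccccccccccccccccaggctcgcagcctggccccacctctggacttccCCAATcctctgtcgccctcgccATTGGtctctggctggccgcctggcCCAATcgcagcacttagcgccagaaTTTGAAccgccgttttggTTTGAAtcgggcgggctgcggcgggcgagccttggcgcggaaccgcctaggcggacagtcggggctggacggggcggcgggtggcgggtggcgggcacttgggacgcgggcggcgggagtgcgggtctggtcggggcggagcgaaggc
In Mcm6, a TTTGGCGC that begins at position -110 from the start overlaps a second E2F match on the other strand, and a further one begins at -47 beside an inverted CCAAT box. In Ccnb2, CCAAT boxes begin at -87, -54 and -21 and a TTTGAA begins just after the start, at 4. An E2F match was present in 4 of 10 windows of replication genes (40%), in 1 of 16 of mitotic genes (6.25%) and in 2.27% of all 32851 promoter windows. The cell cycle homology region was found in 12 of 16 windows of mitotic genes (75%), in 2 of 10 of replication genes (20%) and in 19.2% of all windows. A CCAAT box was found in 9 of 10 windows of replication genes, in 14 of 16 of mitotic genes and in 37.4% of all windows. The 4 windows of G1/S regulators held 0 E2F matches, 0 homology regions and 1 CCAAT box. Of these 4, the window matched to E2f1 holds protein-coding sequence of the gene. Its lack of matches therefore does not describe the E2f1 promoter. All 12 mitotic windows with the homology region also held a CCAAT box. These are letter matches in reference sequence, not measured binding, and the shares were not tested.

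**Figure D1:**
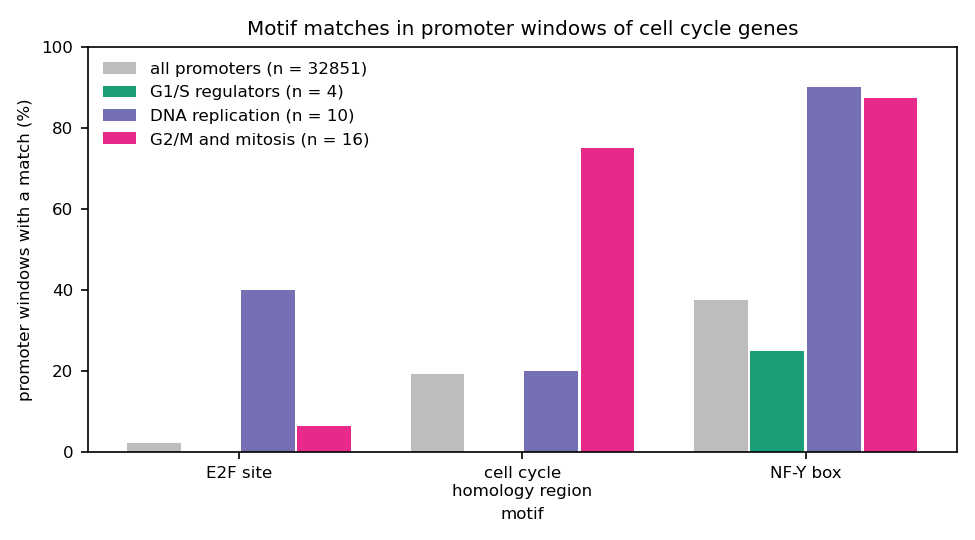
Share of promoter windows of 300 bases (percent, vertical axis) with at least 1 exact match to each of 3 motifs, for all promoters and for the members of each phase; the NF-Y box is the CCAAT box. The highest bar for the E2F site is that of the replication genes (40%) and for the cell cycle homology region that of the mitotic genes (75%), beside 2.27% and 19.2% of all promoters. The G1/S windows include that of E2f1, which holds coding sequence.

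None of the 37 genes passed edgeR's test for a change with BMP-2. Of the 37 members 0 were called higher and 0 lower (quasi-likelihood test of edgeR, adjusted p below 0.05 by the Benjamini-Hochberg method), where 0.911% of all tested genes were called, 0.811% higher and 0.100% lower. At an unadjusted p below 0.05 there were 3 members, all with lower values under BMP-2 (Mki67, Myc and Mcm6), which is 8.11% of the members; of all genes 10.1% had such a p, and 3.65% had it with lower values. DESeq2 called 1 member, Mki67 (adjusted p = 0.0159), where it called 4.03% of all genes with an adjusted p, and limma-voom called 0, where it called 0.459% of all genes. The sizes were small and mostly of 1 sign: 36 of 37 members had a negative log2 change, with a median of -0.15 (a change of -9.62%), and Tyms alone had a positive one. Over all genes tested the median was -0.01, with 52.0% below 0; among the 10548 genes with a mean of at least 10 CPM (read counts divided by TMM-scaled library size), the median was -0.02, with 54.4% below 0. The members share the same 6 libraries and vary together in them, so the 36 signs are not 36 separate observations. In such bulk samples fewer dividing cells and less RNA per cell cannot be told apart.

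By phase the median log2 change was -0.14 for the 7 G1/S regulators, -0.17 for the 10 replication genes and -0.15 for the 20 genes of G2 and mitosis. Differences between phases were not tested. The 95% intervals of the log2 change, which are not adjusted for the number of genes, ran from -0.72 at the lowest (Myc) to 0.42 at the highest (Tyms). Thus 0 of the 37 intervals reached a 2-fold difference in either direction, and 26 stayed within 0.5 on the log2 scale. The median SE was 0.12, beside 0.18 for all genes tested and 0.13 for those with a mean of at least 10 CPM.

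**Figure D2:**
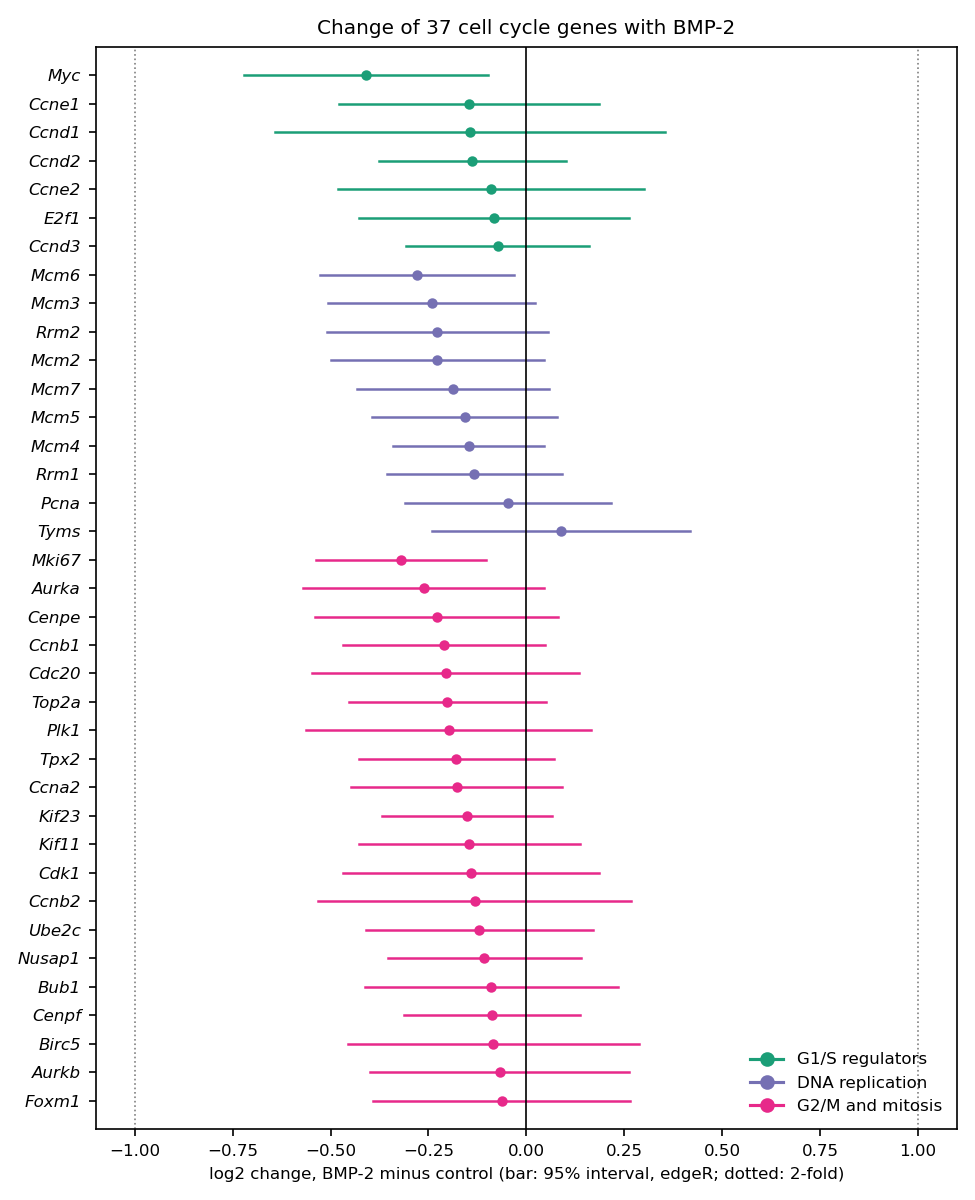
Log2 change with BMP-2 (points) and its 95% interval (bars, edgeR, n = 3 libraries each) for the 37 members, coloured by phase; dotted lines mark a 2-fold difference. All points but Tyms lie left of 0, and the 3 intervals that leave out 0 belong to Myc, Mcm6 and Mki67.

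**Figure D3:**
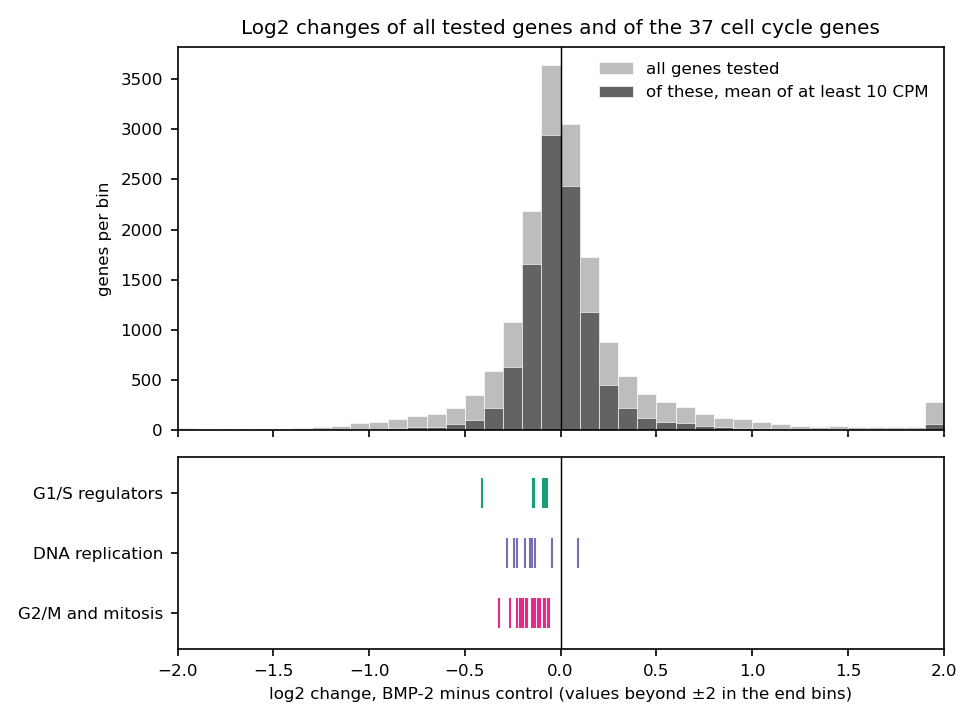
Number of tested genes by log2 change (top, bins of 0.1; darker bars for genes with a mean of at least 10 CPM) and the changes of the members, 1 tick each, by phase (bottom). The members lie between -0.41 (Myc) and 0.09 (Tyms), slightly left of the centre of all genes.

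The BMP-2 libraries were unequal, with the lowest levels in replicate 2. This library was below the control mean for all 37 members and was the lowest of the 6 libraries for 30 of them, while over all genes tested it was the lowest for 18.5%. Averaged over the members, log2 CPM minus the control mean was 0.04, -0.005 and -0.03 among controls, and -0.13, -0.31 and -0.05 among BMP-2 libraries. Thus the unnumbered library lay close to control replicate 3. The members' levels summed to 4236 ± 165 CPM in controls and to 3770 ± 343 CPM after BMP-2 (mean ± SD of 3 libraries), and the unnumbered library, at 4093 CPM, was above control replicate 3, at 4070 CPM. Without BMP-2 replicate 2 the median change of the members was -0.08 and 31 of 37 were negative; without the unnumbered library the median was -0.23, and 36 were negative. Both fits called 0 members.

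All phases followed the same order of libraries under BMP-2. In BMP-2 replicate 2 the mean relative level was -0.26 for the G1/S regulators, -0.30 for the replication genes and -0.33 for the mitotic genes, the lowest of the 6 libraries in each phase. The corresponding means were -0.14, -0.11 and -0.14 in BMP-2 replicate 1, and -0.08, -0.07 and -0.02 in the unnumbered library. Among the controls, replicate 1 was the highest of all libraries for 17 of the 37 members (45.9%), 10 of them mitotic genes and 6 replication genes. It was also the highest for 24.5% of all genes tested and for 28.0% of those with a mean of at least 10 CPM.

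**Figure D4:**
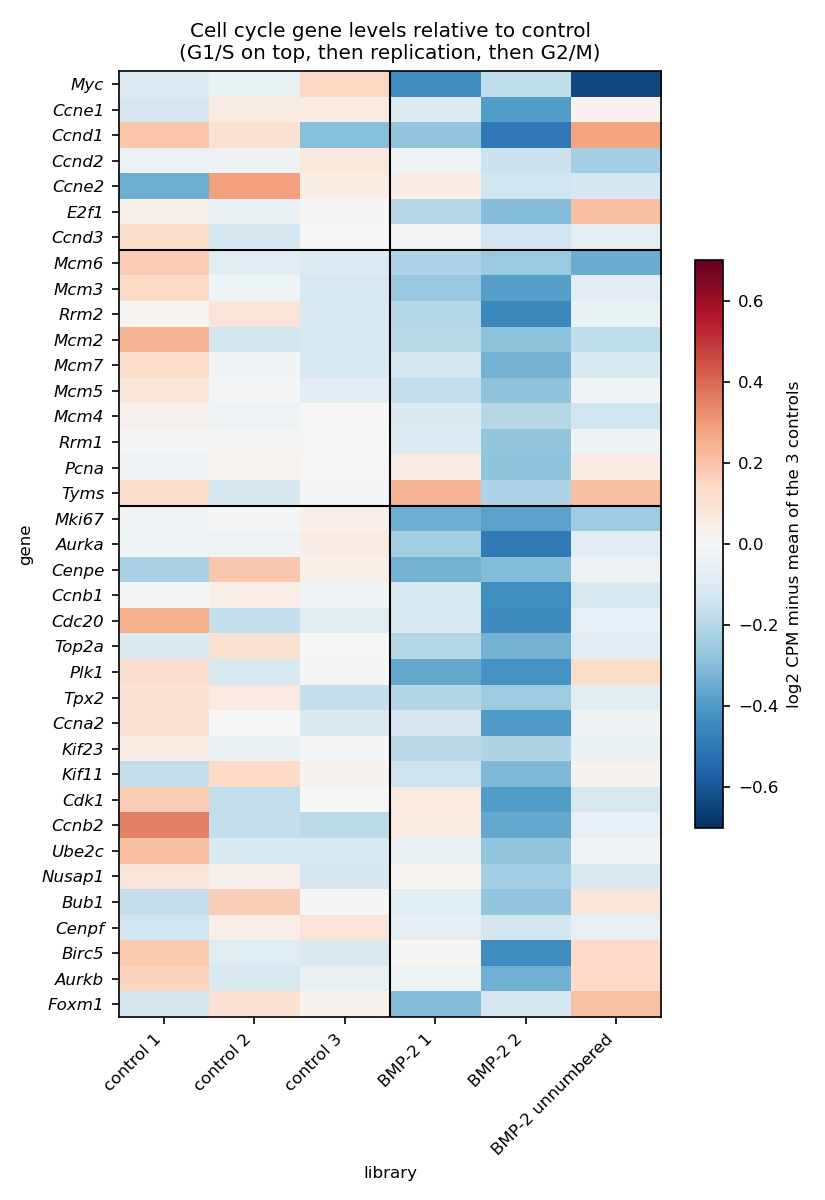
Log2 CPM of each member relative to the mean of the 3 controls (colour) in each of the 6 libraries (columns), ordered by phase and by change. The column of BMP-2 replicate 2 is below the control mean in all 37 rows, whereas the unnumbered BMP-2 library is below it in 26.

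Total counts ran from 19724383 to 32473558 per library, and no pair of replicates was alike within counting noise (chi-square over degrees of freedom 12.7 to 38.2). Markers of cell types were present at very unequal levels. Of 5 end bud markers 0 were called and 3 had an unadjusted p below 0.05, with lower values; the summed level of the 5 was 1955 to 3852 CPM in the controls and 953 to 1476 CPM with BMP-2, lowest in BMP-2 replicate 2, and most of it was Bpifa2, at 3376 CPM in control replicate 1 and 519 CPM in BMP-2 replicate 2. In that library Sox10 (135 CPM), Aqp5 (101 CPM) and Kit (145 CPM) lay within the range of the controls. Etv5, at 54.5 CPM there, was below all controls (74.4 to 93.4 CPM), as was Bpifa2. Of 11 skeletal muscle markers 10 matched a row by name, 1 was called, higher, and 8 had an unadjusted p below 0.05 with higher values. The 10 had a median log2 change of 4.19. They summed to 5.46 to 95.7 CPM in the controls and 185 to 779 CPM with BMP-2, with Myf5 at 0 in control replicates 1 and 2. The 7 epithelial markers summed to 4053 to 4823 and 3384 to 5086 CPM and the 7 mesenchymal markers to 6607 to 7776 and 5363 to 8588 CPM, with 0 called. BMP-2 replicate 2 had the highest epithelial and the lowest mesenchymal sum of the 6 libraries, but single markers differed. Krt8 (1166 CPM) and Krt14 (1118 CPM) were above all controls there, and the other epithelial markers lay within the control range. Col1a1, Col1a2, Col3a1 and Pdgfra were below all controls, Pdgfrb lay within their range, and Vim (590 CPM) and Twist1 (25.8 CPM) were above all controls. Of 5 cartilage markers 2 were called higher and Matn1 was at 0. The 4 tested had a median log2 change of 2.66. The 5 summed to 188 to 231 CPM in the controls and 228 to 311 CPM with BMP-2, highest in BMP-2 replicate 2. Most of this sum was Sox9, at 155 to 188 CPM in the controls and 143 to 178 CPM with BMP-2. Col2a1 was at 0.547 to 1.72 and 16.8 to 42.1 CPM, Acan at 0.0748 to 0.348 and 4.73 to 12.8 CPM, and Col9a1 at 31.6 to 49.8 and 59.2 to 89.4 CPM. The 5 macrophage markers summed to 44.1 to 111 and 78.6 to 153 CPM, the 5 endothelial ones to 6.42 to 17.5 and 9.87 to 16.2 CPM, 4 of 5 neuronal ones to 98.1 to 131 and 42.1 to 101 CPM, and the 5 Schwann cell and glial ones to 13.7 to 19.6 and 13.0 to 15.8 CPM, with 0 called. The 8 erythroid markers summed to at most 2.86 CPM, with Hba-a2 at 0 in every library; globin genes have near-identical copies whose reads may be uncounted. The part of these cell types in the members' levels was not tested.

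The G1/S regulators were led in level by Ccnd1. Per kilobase of the deposited gene length, which allows levels of different genes to be compared, Ccnd1 was at 91.2 ± 15.7 CPM per kilobase in the controls, the highest of the 37 members, and Ccnd2 at 36.3 ± 1.69 and Ccnd3 at 24.2 ± 2.10 (SD, n = 3 each). The lowest of the phase was Ccne2, at 5.55 ± 1.19 CPM per kilobase, below Ccne1 at 7.86 ± 0.564 CPM per kilobase. This difference between genes was not tested. A length that takes in seldom used exons makes a gene read low.

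Ccnd1, Ccnd2 and Ccnd3 encode the D-type cyclins, partners of CDK4 and CDK6. Ccnd1 was at 645, 608 and 459 CPM without and at 467, 400 and 685 CPM with BMP-2. Both the highest and the lowest value came from BMP-2 libraries, and Ccnd1 had the widest SE of the members (log2 change -0.14, SE 0.22, adjusted p = 0.957, edgeR). Ccnd2 was at 346, 348 and 375 CPM without and 349, 321 and 302 CPM with BMP-2. Here BMP-2 replicate 1 lay among the controls, and the log2 change was -0.14 (SE 0.10, adjusted p = 0.836, edgeR). Ccnd3 was at 231, 194 and 212 CPM without and at 210, 193 and 202 CPM with the ligand. The groups overlapped, with a log2 change of -0.07 and a 95% interval from -0.31 to 0.16.

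The E-type cyclins, partners of CDK2, were between 16.1 and 27.5 CPM in all libraries. Ccne1 was at 19.4, 22.1 and 22.0 CPM in the controls and 19.7, 16.1 and 21.6 CPM with BMP-2, so that the groups overlapped. For Ccne2 the controls were at 17.7, 27.5 and 23.3 CPM and the BMP-2 libraries at 23.4, 20.4 and 20.6 CPM, all inside the range of the controls. E2f1, an E2F activator of replication genes, was at 28.3, 26.6 and 27.7 CPM without and at 23.9, 22.3 and 31.8 CPM with BMP-2. Its controls were close together and its BMP-2 libraries lay on both sides of them (log2 change -0.08, 95% interval -0.43 to 0.26).

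Myc, a transcription factor that promotes growth and entry into the cycle, had the largest difference of the members. It was at 69.2, 71.1 and 81.4 CPM without and at 54.4, 65.2 and 47.3 CPM with BMP-2. Every BMP-2 library was below every control, but the adjusted p was 0.275 (edgeR; log2 change -0.41, SE 0.14, 95% interval -0.72 to -0.10). Myc also departed from the common order of libraries: its lowest value was in the unnumbered library, and BMP-2 replicate 2 was the highest of the BMP-2 libraries. Leaving out 1 library at a time gave log2 changes from -0.54 to -0.30 and a lowest adjusted p of 0.137 (edgeR). The gene lies on chromosome 15 from 61857240 to 61862223 on the plus strand (GRCm39, whole gene span).

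**Figure D5:**
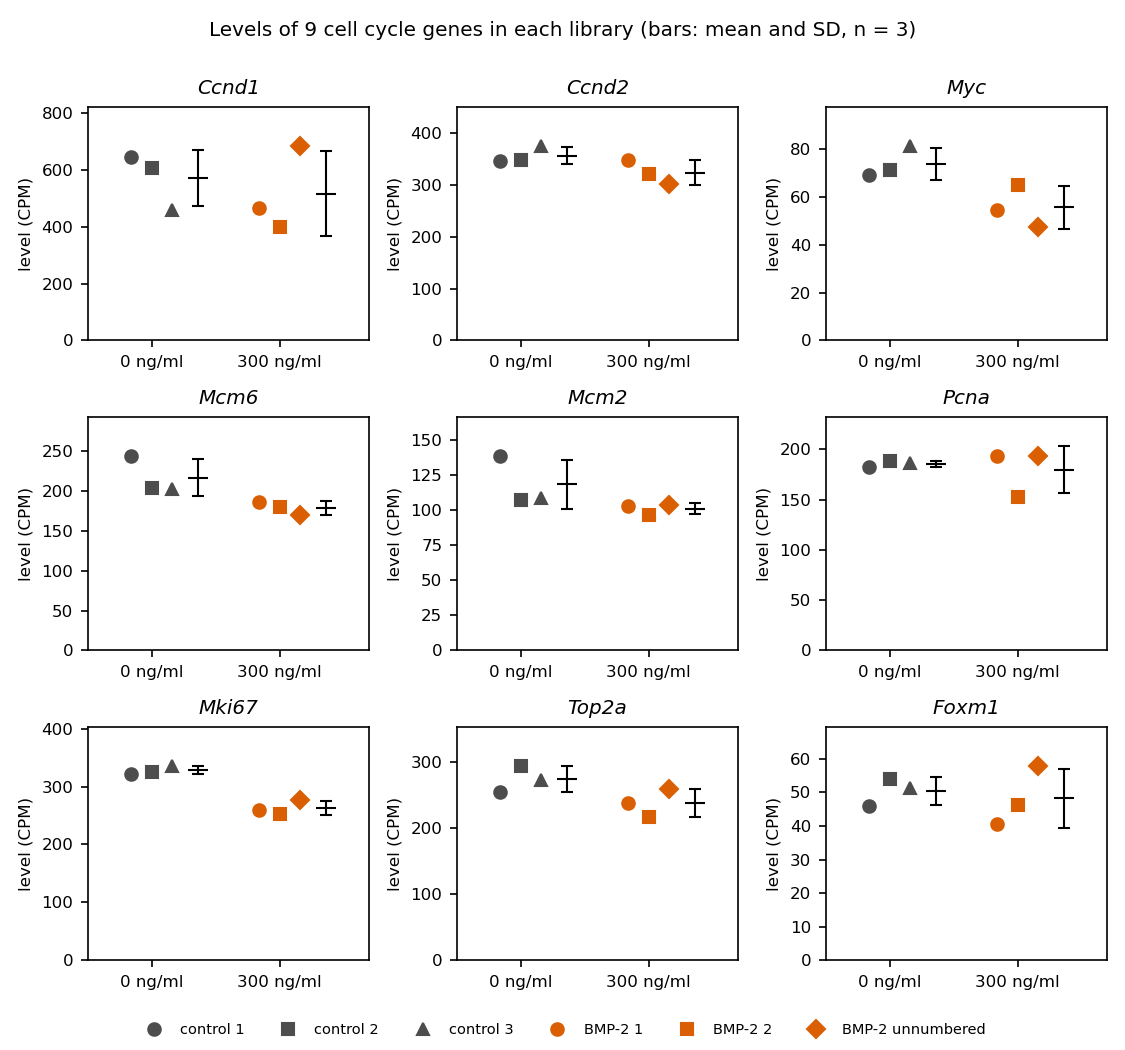
Levels in CPM (vertical axes from 0) of 9 members in the 3 control and 3 BMP-2 libraries, with mean and SD beside the points. Mki67, Myc, Mcm6 and Mcm2 have all BMP-2 libraries below all controls, Ccnd1 and Foxm1 spread widely under BMP-2, and for Pcna BMP-2 replicate 2 alone lies below the controls.

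The 6 MCM genes, which encode the subunits of the helicase that unwinds DNA at replication forks, all had negative changes, from -0.28 for Mcm6 to -0.15 for Mcm4. Mcm6 was at 244, 204 and 203 CPM in the controls and 186, 180 and 170.0 CPM with BMP-2. The groups did not overlap, and control replicate 1 stood above the other libraries (log2 change -0.28, SE 0.11, 95% interval -0.53 to -0.03, adjusted p = 0.400, edgeR). Mcm2 showed the same shape, at 139, 108 and 109 CPM without and 103, 96.7 and 104 CPM with BMP-2. Control replicate 1 was again the highest, and without it the log2 change of Mcm2 was -0.10. Mcm3 was at 121, 108 and 102 CPM without and at 91.2, 84.0 and 104 CPM with BMP-2, where the unnumbered library lay among the controls (log2 change -0.24, SE 0.12). Mcm4 had the most even controls of the 6, with a mean of 119 ± 2.34 CPM, against 107 ± 3.71 CPM after BMP-2 (SD, n = 3 each), and no overlap. Mcm5 and Mcm7 overlapped between groups, with log2 changes of -0.16 and -0.19. Mcm6 lies on chromosome 1 from 128259327 to 128287401 on the minus strand (GRCm39).

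Pcna, the sliding clamp of the DNA polymerases, was the most abundant replication gene per length, at 76.5 ± 1.2 CPM per kilobase in the controls (SD, n = 3). It was at 182, 188 and 186 CPM in the controls and 193, 153 and 193 CPM with BMP-2. Only BMP-2 replicate 2 was apart, below all others, and the other BMP-2 libraries were above all controls (log2 change -0.05, 95% interval -0.31 to 0.22, adjusted p = 0.976, edgeR). Rrm2, the regulated subunit of ribonucleotide reductase, which makes deoxyribonucleotides, was at 67.9, 71.5 and 62.5 CPM without and 58.5, 49.2 and 64.8 CPM with BMP-2. The unnumbered library lay among the controls, and the log2 change was -0.23 (SE 0.12). Rrm1, the large subunit, had very even controls, 192 ± 0.971 CPM, against 175 ± 14.7 CPM after BMP-2 (SD, n = 3 each), and every BMP-2 library was below every control. Tyms, which makes thymidylate, was the exception in sign, at 41.7, 35.1 and 38.0 CPM without and 45.1, 32.9 and 44.2 CPM with BMP-2. Its lowest value was again in BMP-2 replicate 2 and the groups overlapped (log2 change 0.09, adjusted p = 0.958, edgeR).

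Among the genes of G2 and mitosis, Mki67 had the lowest unadjusted p of all 37 members (0.00910). Mki67 encodes Ki-67, a protein that coats mitotic chromosomes and marks cycling cells. It was at 322, 326 and 336 CPM without and at 259, 253 and 276 CPM with BMP-2. The controls lay within a narrow range and all BMP-2 libraries were below it, an average change of -19.9% (log2 change -0.32, SE 0.09, 95% interval -0.54 to -0.10). The adjusted p was 0.208 in edgeR, 0.0159 in DESeq2 and, whichever library was left out, at least 0.276 in edgeR, with log2 changes from -0.36 to -0.29. Mki67 lies on chromosome 7 from 135291513 to 135318090 on the minus strand (GRCm39).

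The other mitotic genes had smaller differences. Top2a, the topoisomerase that untangles chromosomes, was at 255, 294 and 273 CPM without and 238, 217 and 259 CPM with BMP-2, with the unnumbered library inside the control range (log2 change -0.20, SE 0.11, adjusted p = 0.659, edgeR). Foxm1, the transcription factor of mitotic genes, was at 46.0, 54.0 and 51.2 CPM without and at 40.6, 46.3 and 57.9 CPM with BMP-2. The unnumbered library had the highest Foxm1 of all libraries, and the change was -0.06 with a 95% interval from -0.39 to 0.27.

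Cdk1, the kinase that starts mitosis, was at 82.7, 64.8 and 72.8 CPM in the controls and 76.5, 55.8 and 67.5 CPM with BMP-2. The groups overlapped, and BMP-2 replicate 2 was the lowest. Its partner Ccnb1, cyclin B1, was at 63.4, 66.0 and 62.6 CPM without and 59.3, 47.5 and 59.1 CPM with BMP-2. Each BMP-2 value was below the controls, that of replicate 2 by the most (log2 change -0.21, SE 0.11, adjusted p = 0.648, edgeR). Ccnb2, cyclin B2, had a log2 change of -0.13, and Ccna2, cyclin A2, which acts in S phase and G2, one of -0.18; both overlapped between groups.

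Among the mitotic kinases, Plk1, polo-like kinase 1, was at 42.4, 36.3 and 38.7 CPM without and 30.4, 29.3 and 42.6 CPM with BMP-2. Its unnumbered library was the highest of all and the other BMP-2 libraries were the lowest. Aurka, the aurora kinase of spindle poles, was at 26.1, 26.2 and 27.5 CPM without and 22.4, 18.9 and 25.2 CPM with BMP-2, without overlap (log2 change -0.26, SE 0.13, adjusted p = 0.613, edgeR). Aurkb, the aurora kinase of the chromosomal passenger complex, was at 40.5, 33.7 and 35.1 CPM without and at 35.6, 28.7 and 39.9 CPM with BMP-2. The values of the groups were interleaved, and the log2 change was -0.07. Birc5, survivin, of the same complex, had a change of -0.08, and Bub1, a kinase of the spindle checkpoint, one of -0.09.

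The remaining mitotic members had log2 changes from -0.23 for Cenpe, a kinetochore motor, to -0.09 for Cenpf, a kinetochore protein. Between them lay Cdc20 (-0.21), the activator of the anaphase-promoting complex, Tpx2 (-0.18), a spindle assembly factor, Kif23 (-0.15), a motor of cytokinesis, Kif11 (-0.15), a motor of the bipolar spindle, Ube2c (-0.12), a ubiquitin-conjugating enzyme of the anaphase-promoting complex, and Nusap1 (-0.11), a spindle protein. Of these 8 only Kif23 had no overlap between groups. In all, 9 of the 37 members (24.3%) had every BMP-2 library below every control and 0 above, where 6.73% of all tested genes lay below and 8.76% above. They were Myc, Mcm2, Mcm4, Mcm6, Rrm1, Mki67, Aurka, Ccnb1 and Kif23. Among 76 other cell cycle genes, described below, 5 (6.58%) lay below and 2 above, near the shares of all tested genes.

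Some rows may hold reads of a neighbour, since strand use in counting is not given. An opposite-strand row overlapped the span of 14 members, and for 7 members (Mcm7, Ccnd3, Ccne2, Ccna2, Cdc20, Nusap1 and Ube2c) an overlapping row held at least 10% as many counts. Ube2c overlaps Tnnc2, a troponin gene of fast skeletal muscle with a log2 change of 5.18 here. Only whole gene spans were compared, so it is not known whether exons overlap. Reads of any shared exon cannot be told apart if strand was ignored. Ccne2 overlaps Ints8, and Cdc20 overlaps Elovl1, both partners with more counts than the member. Pcna has a pseudogene row, Pcna-ps2, with a mean of 265 counts, so its reads may be split.

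The cell cycle genes outside the 37 also had small changes, mostly negative. Of 79 further listed genes 76 matched a row by name and were tested. Of these edgeR called 0, DESeq2 2 and limma-voom 0, beside 0.911%, 4.03% and 0.459% of all genes. At an unadjusted p below 0.05 in edgeR there were 2 higher and 3 lower, beside 10.1% of all genes in either direction. The 3 lower ones were 3.95% of the 76, where 3.65% of all genes had such a p with lower values. A negative log2 change was found in 64 of the 76, with a median of -0.12. By group the medians were -0.07 for 16 G1/S genes, with 11 negative, -0.16 for 29 replication genes, with 25 negative, and -0.10 for 31 mitosis genes, with 28 negative. BMP-2 replicate 2 was the lowest library for 49 of the 76.

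The genes with the lowest unadjusted p of each group were the following. Cdk6, a kinase partner of D-type cyclins, was at 65.6, 54.4 and 57.6 CPM without and 45.7, 42.6 and 40.8 CPM with BMP-2. All BMP-2 libraries were below all controls (log2 change -0.46, SE 0.11); its adjusted p was 0.108 in edgeR and 0.0137 in DESeq2. Rb1, the retinoblastoma protein that restrains E2F, was at 9.41, 15.8 and 14.2 CPM without and 18.1, 18.0 and 21.9 CPM with BMP-2, all above the controls (log2 change 0.56, SE 0.20, adjusted p = 0.349, edgeR). Cdc25b, a phosphatase that activates CDK1, was at 46.7, 42.4 and 43.6 CPM without and 55.5, 61.1 and 85.9 CPM with BMP-2. It was opposite in sign to most mitosis genes, with every BMP-2 library above the controls and the unnumbered one highest (log2 change 0.61, SE 0.16); its adjusted p was 0.159 in edgeR and 0.0244 in DESeq2. Hmmr, a spindle protein, had a log2 change of -0.24, and the nucleotide enzymes Tk1, thymidine kinase, and Dut, dUTPase, had -0.37 and -0.30 (adjusted p = 0.508, 0.397 and 0.466, edgeR).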

How the data were processed

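Per the labels, poly(A) RNA from 6 libraries was made into directional libraries. The authors deposited raw read counts per gene with no normalization, and a length per gene, which was used for levels per kilobase; it exceeds the span from start to end in 827 rows, of which 0 are members. Per the submitters' processing notes, cutadapt 2.9, HISAT2 2.2.0 and featureCounts were used with build GRCm39; strand and multi-mapping settings are not given in the sources used here. Counts were tested with edgeR 4.0.16 (R 4.3.3; robust quasi-likelihood fit, TMM, default low-count filter). The fit had 4 residual degrees of freedom, and p-values were adjusted over 17006 genes by the Benjamini-Hochberg method. An exact permutation test of 3 against 3 cannot give a two-sided p under 0.1. Alternatives used DESeq2 1.42.0, limma 3.58.1, other scalings and filters, a replicate block and each library left out. The members, the lists and the rule for genes shown in every library (18 listed members and the 2 lowest p of each phase) were chosen with earlier results of these data known. Genes were looked up by name only. Of the listed genes 5, among them Cdt1, Gins2 and Lin54, matched no row by name and were not analysed here.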

Additional observations from a re-analysis of the deposited data

How the results depend on the processing

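The count of members called was 0 under each scaling, filter and left-out library, with limma-voom and with the replicate block; DESeq2 called 1, Mki67, a gene of G2 and mitosis (log2 change -0.32, adjusted p = 0.0159; 0.0159 to 0.537 over all alternatives). With every other scaling, filter and test on the 6 libraries 36 of 37 members kept a negative change. Further listed cell cycle genes called numbered 1 without a filter (Cdc25b) and 2 by DESeq2, counts added after seeing the data. Over all genes, higher and lower calls were 433 and 119 without a filter, 512 and 160 by DESeq2, 69 and 9 by limma-voom, and 10 lower with library totals. With 1 library left out, higher calls were 19 to 145 and lower calls 1 to 18.

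The replicate block on the 4 libraries with shared numbers called 451 genes higher and 89 lower, with medians of -0.24 for the members, -0.21 for G1/S, -0.27 for replication and -0.25 for G2/M. Under it 10 members had an unadjusted p below 0.05 with lower values, beside 5.65% of all genes, and the lowest adjusted p of a member was 0.0517 (Ccnd1, log2 change -0.53, edgeR). This fit also lacks control replicate 3 and the unnumbered BMP-2 library. Without the unnumbered library alone, and with no block, the members' median was -0.226. The part of the block itself was thus not separated. Deviations of same-numbered libraries correlated at 0.428 and 0.137, and those of other pairs at -0.342 to 0.222. In the 4 numbered libraries, the differences of replicate 1 minus replicate 2 correlated at 0.405 between control and BMP-2. The labels tie no number to a litter or day, so the numbers were not taken as pairs.

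Leaving out 1 library moved the medians to -0.226 to -0.080 for the members, -0.238 to -0.043 for G1/S, -0.225 to -0.120 for replication and -0.221 to -0.073 for G2/M, in each case highest without BMP-2 replicate 2. The sign changed for Ccnb2 (-0.224 to 0.067), Aurkb (-0.177 to 0.051), Birc5 (-0.199 to 0.065), Ccne2 (-0.242 to 0.063), Bub1 (-0.179 to 0.0010), Foxm1 (-0.212 to 0.048), Ccnd1 (-0.396 to 0.012), E2f1 (-0.251 to 0.017) and Pcna (-0.102 to 0.058). Over all settings the 95% intervals of the members lay between -0.842 and 0.550.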
